A study of Mus musculus with 4 samples.

Results

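MHC class II-bearing monocytes of myeloma-bearing bone marrow were taken here as the 189 cells, of 39743 cells that passed quality control, whose RNA counts joined a monocyte signature to the class II β chain gene H2-Ab1. A cell was counted when it held at least 1 unique molecular identifier (UMI, 1 counted RNA molecule) of Csf1r, at least 1 of Ccr2, at least 2 of Ly6c2 and at least 3 of H2-Ab1, and none of Siglech, Flt3, Cd79a, Mki67 or Top2a. The gate therefore chose the cells by their measured RNA, and the levels of these 9 genes describe the gate and are not results. Class II was measured as RNA and not as protein on the cell surface. The cells made up 0.476% of all cells kept and 16.0% of the 1181 cells that met every condition but the one on H2-Ab1.

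The samples were whole bone marrow, after red cell lysis, from 5TMM mice, in which 5TGM1-luc murine myeloma cells had been injected intravenously into immunocompetent C57BL/KawRij hosts. Mice received vehicle (n = 2) or Purinostat Mesylate (PM, n = 2), an inhibitor of class I and IIb histone deacetylases (HDACs), at 10 mg/kg, and marrow was taken 24 h later. All 4 mice carried myeloma cells from 1 injected line, and no tumour-free mouse was part of the design, so every sample below is myeloma-bearing marrow. Each mouse gave 1 droplet library of 3′ RNA ends, and the mouse was the replicate. After quality control vehicle 1, vehicle 2, PM 1 and PM 2 held 9261, 7826, 13387 and 9269 cells, of which 49, 24, 85 and 31 were MHC class II-bearing monocytes, and values for the 4 mice are given in this order throughout. The deposited matrices of the 4 libraries held 86052982, 69828595, 109447030 and 74388936 UMIs. Kept libraries shared between 18 and 39 cell barcodes pairwise, and 0 of the shared barcodes marked an MHC class II-bearing monocyte.

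MHC class II molecules present peptides from the endosomal pathway to CD4+ T cells. Their α and β chains assemble with the invariant chain, encoded by Cd74, and exchange a fragment of it for a peptide with the help of H2-DM. Transcription of these genes depends on the coactivator CIITA, which binds no DNA itself and is held at the promoter by RFX on the X box and NF-Y on the Y box. Classical Ly6C-high monocytes leave the marrow by way of CCR2, depend on the M-CSF receptor encoded by Csf1r, and can acquire class II in tissues or under interferon-γ. Type I interferons act through ISGF3 on a different promoter element. The promoters printed below are those of class II genes that rose with H2-Ab1 in these cells and of 3 interferon-stimulated genes that were higher after PM, with matches to the letters of these elements in capitals.

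The sequences were taken from RefSeq on build GRCm38.p6, run 5′ to 3′ on the gene's own strand, and span 250 bases before to 50 bases after the annotated start. They lie at chr17:34287774-34288073 on the minus strand for H2-Aa, chr17:34305617-34305916 on the plus strand for H2-Eb1, chr17:34152941-34153240 on the plus strand for H2-DMb1, chr4:156200769-156201068 on the minus strand for Isg15, chr19:34640639-34640938 on the plus strand for Ifit1 and chr12:26456403-26456702 on the minus strand for Rsad2. No promoter was printed for H2-Ab1, Ciita or Usp18.
H2-Aa: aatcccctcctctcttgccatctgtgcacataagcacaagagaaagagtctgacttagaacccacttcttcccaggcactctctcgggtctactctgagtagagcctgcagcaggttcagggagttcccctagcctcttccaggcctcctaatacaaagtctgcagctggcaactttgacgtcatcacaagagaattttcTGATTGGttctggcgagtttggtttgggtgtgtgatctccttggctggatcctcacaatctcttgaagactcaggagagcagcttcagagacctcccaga
H2-Eb1: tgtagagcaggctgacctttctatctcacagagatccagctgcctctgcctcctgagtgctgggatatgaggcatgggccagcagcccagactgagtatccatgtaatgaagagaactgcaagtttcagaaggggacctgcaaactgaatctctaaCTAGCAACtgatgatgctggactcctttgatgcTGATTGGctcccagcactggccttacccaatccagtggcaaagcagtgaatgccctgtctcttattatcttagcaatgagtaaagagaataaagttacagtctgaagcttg
H2-DMb1: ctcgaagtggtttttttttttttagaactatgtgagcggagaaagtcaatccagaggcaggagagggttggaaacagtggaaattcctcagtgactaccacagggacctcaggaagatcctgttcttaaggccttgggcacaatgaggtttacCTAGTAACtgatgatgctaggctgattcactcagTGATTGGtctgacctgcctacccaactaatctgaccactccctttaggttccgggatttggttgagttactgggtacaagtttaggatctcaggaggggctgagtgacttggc
Isg15: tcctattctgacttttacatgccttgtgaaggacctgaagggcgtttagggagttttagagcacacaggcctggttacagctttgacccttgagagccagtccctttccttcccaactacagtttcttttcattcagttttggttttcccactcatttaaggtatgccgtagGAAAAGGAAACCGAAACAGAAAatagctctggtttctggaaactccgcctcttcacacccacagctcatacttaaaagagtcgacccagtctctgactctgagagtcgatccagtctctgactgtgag
Ifit1: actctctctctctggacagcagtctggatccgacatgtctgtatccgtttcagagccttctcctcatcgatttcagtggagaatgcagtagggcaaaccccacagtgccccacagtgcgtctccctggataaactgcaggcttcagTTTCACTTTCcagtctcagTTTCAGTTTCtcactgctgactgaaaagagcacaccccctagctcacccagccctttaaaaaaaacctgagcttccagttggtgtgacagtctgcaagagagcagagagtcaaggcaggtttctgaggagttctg
Rsad2: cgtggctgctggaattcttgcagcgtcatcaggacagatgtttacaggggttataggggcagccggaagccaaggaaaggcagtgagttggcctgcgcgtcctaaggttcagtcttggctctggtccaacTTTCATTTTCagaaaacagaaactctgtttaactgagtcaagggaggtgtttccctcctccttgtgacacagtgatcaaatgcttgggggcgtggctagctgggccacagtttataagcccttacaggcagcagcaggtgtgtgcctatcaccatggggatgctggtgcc

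Both strands were searched for 3 strings of letters. The Y box string TGATTGG lay between 63 and 44 bases before the start in H2-Aa, H2-Eb1 and H2-DMb1, and was held by 7 of 9 promoters of the class II list (77.8%) against 7.82% of all 32851 RefSeq promoters. The X box string CTAGNAAC lay just upstream of it in H2-Eb1, from -94 to -87, and in H2-DMb1, from -97 to -90, and was not in the H2-Aa window; 4 of the 9 class II promoters (44.4%) and 3.62% of all promoters held it. The letters of the interferon response element, searched as 2 GAAA strings with any 2 bases between them, occurred in 3 overlapping copies from -78 to -57 in Isg15, in 2 copies on the opposite strand in Ifit1 and in 1 copy on the opposite strand in Rsad2. They were held by 22 of 35 promoters of the type I interferon list (62.9%) against 3.44% of all promoters, and by 0 of the 9 class II promoters. A match is a description of the sequence and does not say that a factor was bound there.

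Markers were read first. All 189 cells held Lyz2 (lysozyme), which the gate did not use. It was also detected in 98.9% of 17893 Ly6g-gated neutrophils, so it does not tell monocytes from neutrophils. H2-Ab1-low monocytes were the 964 cells (314, 188, 334 and 128) with the same monocyte conditions and at most 1 UMI of H2-Ab1. CPM (gene UMIs per 1000000 UMIs of the summed cells) of Lyz2 was 9710, 9992, 16182 and 17186. In H2-Ab1-low monocytes it was 12344, 15437, 18845 and 16000. Of the other markers, Cd74 was detected in 188 of the 189 cells, H2-Aa in 184, H2-Eb1 in 149 and Ciita in 127. Tppp3, a tubulin polymerization-promoting protein gene listed as a marker, was detected in only 62 cells, in 51.0%, 41.7%, 22.4% and 25.8% of those of each mouse. Median UMIs per cell were 9054, 8104.5, 6944 and 7020 in MHC class II-bearing cells and 9300, 9969.5, 7423 and 8640 in H2-Ab1-low monocytes, so the gated cells were not deeper than their comparators.

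H2-Ab1 was absent from most monocytes and abundant in a minority. Among the 1181 gated monocytes 875 held 0 UMIs, 89 held 1, 28 held 2 (5, 2, 15 and 6 cells, just outside the gate) and 17 held 3 (just inside it). The 189 cells above the threshold had a median of 12 UMIs, an interquartile range of 6 to 28 and a maximum of 135, and 103 of them held more than 10. The other class II genes followed the H2-Ab1 count as a gradient. Over all mice Cd74 CPM was 161 in cells with 0 H2-Ab1 UMIs, 1230 with 2, 1664 with 3, 3423 with 6 to 10 and 10079 above 10, while H2-Aa, the α chain of the same molecule, went from 10.6 through 201, 424 and 1244 to 4863. Ciita, which encodes the coactivator, was at 6.66 CPM with 0 H2-Ab1 UMIs, 74.1 with 3 and 277 above 10. Cells just outside and just inside the threshold thus differed from each other by a smaller fold than either did from the ends of the range. F13a1 and Vcan, genes of classical monocytes, ran the other way, from 1795 to 653 CPM and from 653 to 218 CPM between 0 and more than 10 H2-Ab1 UMIs.

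Tppp3 followed neither course. In vehicle mice it was highest at intermediate H2-Ab1, at 473 and 693 CPM with 6 to 10 UMIs and 238 and 132 CPM above 10, and in PM mice it was 110 and 47.2 CPM and then 149 and 85.6 CPM. The bins of 6 to 10 UMIs held only 10, 8, 15 and 8 cells, so these levels rest on few cells.

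**Figure D1:**
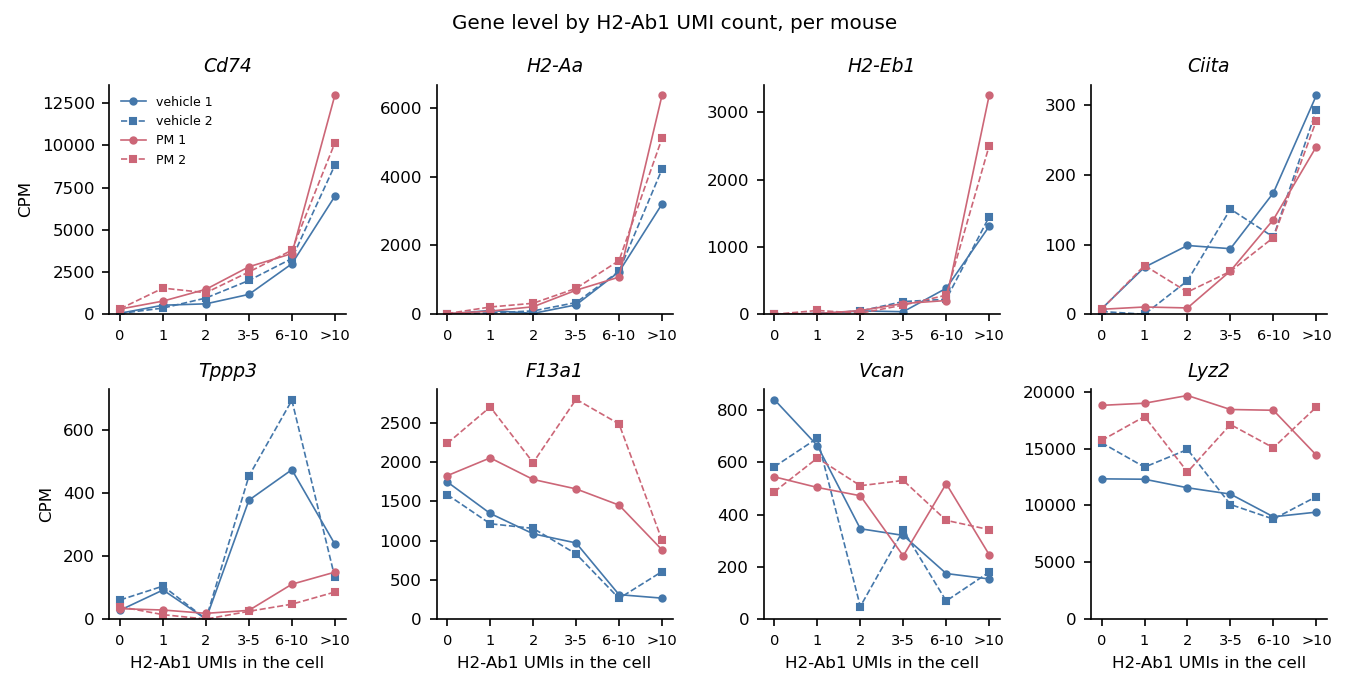
CPM (vertical axes, linear and starting at 0) of 8 genes in gated monocytes grouped by the H2-Ab1 UMIs of the cell, with 1 line per mouse, blue for vehicle and red for PM. Over all mice Cd74 runs from 161 CPM at 0 H2-Ab1 UMIs to 10079 CPM above 10, and F13a1 from 1795 down to 653.

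Per mouse, Cd74 stood at 4949, 5992, 8671 and 5849 CPM in the MHC class II-bearing cells and at 85.7, 62.4, 375 and 481 CPM in H2-Ab1-low monocytes. H2-Aa stood at 2181, 2663, 3950 and 2677 against 9.74, 8.07, 28.9 and 44.0 CPM, and H2-Eb1, a second β chain, at 852, 852, 1906 and 1105 against 1.68, 2.15, 4.18 and 7.18 CPM. Ciita stood at 239, 211, 177 and 160 against 11.1, 3.77, 7.61 and 15.2 CPM. The summed levels of the 2 populations did not overlap across mice for any of these 4 genes, while single cells did, since 47.3% of the 964 H2-Ab1-low monocytes held a UMI of Cd74 and 4.98% one of Ciita. H2-DMa and H2-DMb1, the peptide exchange factor, were already present in the comparators, at 143, 126, 222 and 178 CPM and at 48.0, 46.8, 71.5 and 76.2 CPM, and reached 522, 431, 603 and 479 and 354, 357, 374 and 366 CPM. As a description with no test, the fitted log2 differences were 8.48 for H2-Eb1, 7.20 for H2-Aa, 5.10 for Cd74, 4.49 for Ciita, 2.64 for H2-DMb1 and 1.65 for H2-DMa. When the UMIs of each cell were split at random and the gate was set on one part, the other part still gave H2-Ab1 at 1769, 2453, 3725 and 1700 CPM above the threshold and 6.95, 9.78, 33.3 and 17.3 CPM below it.

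The share of these cells was the first question the design put to them. Among all cells kept it was 0.529%, 0.307%, 0.635% and 0.334%, a mean of 0.418% ± 0.157 in vehicle and 0.485% ± 0.212 in PM (SD, n = 2 mice each), and the groups overlapped (two-sided exact permutation test, p = 0.667). Among gated monocytes the cells made up 13.3% (95% exact binomial interval 10.0 to 17.2), 11.2% (7.32 to 16.2), 19.6% (16.0 to 23.6) and 18.8% (13.1 to 25.6). Both PM mice lay above both vehicle mice, at 19.2% ± 0.564 against 12.3% ± 1.49, a difference of 6.92 percentage points or 1.56-fold. An exact permutation test gave p = 0.333, the smallest that 2 mice against 2 can give, so the difference could not pass 0.05 at this size. The intervals cover counting error within a library only.

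The size of that difference depended on the gate's condition on Ly6c2. The level of Ly6c2 in gated cells, which the gate itself bounds from below and which is given as a description with no test, was 1861, 1832, 4196 and 4595 CPM in the H2-Ab1-low monocytes and 1092, 729, 2754 and 3950 CPM in the MHC class II-bearing cells. Without the condition on Ly6c2, an alternative chosen after seeing the data, the shares were 19.6% (87 of 445 cells), 18.2% (50 of 275), 21.8% (100 of 458) and 21.8% (41 of 188). The difference then was 2.96 points or 1.16-fold, still with both PM mice above both vehicle mice. The share of all cells kept turned direction without that condition, to 0.789% in vehicle and 0.595% in PM. With at least 4 UMIs of Ly6c2 the shares were 11.7%, 7.57%, 17.5% and 18.3%.

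Depth and free RNA were measured beside the share. With each cell thinned to 3000 UMIs the shares among monocytes were 10.7%, 3.38%, 14.1% and 17.1%, and 1808, 2283, 4185 and 2713 shallower kept cells, 4 of them MHC class II-bearing monocytes of PM 1, were left out. Among Ly6g-gated neutrophils, which should lack class II and had median UMIs of 6088, 6490, 4684 and 5157.5, at least 1 UMI of H2-Ab1 was found in 1.55%, 1.67%, 5.33% and 3.01% of cells and at least 3 in 0.170%, 0.174%, 0.322% and 0.181%. The shares of gated monocytes with 3 or more UMIs were far above these in every mouse. The share of monocytes with 1 or 2 UMIs, 5.98%, 4.67%, 14.3% and 13.9%, was higher in both PM mice than in both vehicle mice, as was the share of neutrophils with at least 1 UMI. B cells, gated on Cd79a and Ms4a1, made up 1.81%, 6.89%, 8.37% and 6.42% of the cells kept. The part of free RNA in these low counts was not tested.

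**Figure D2:**
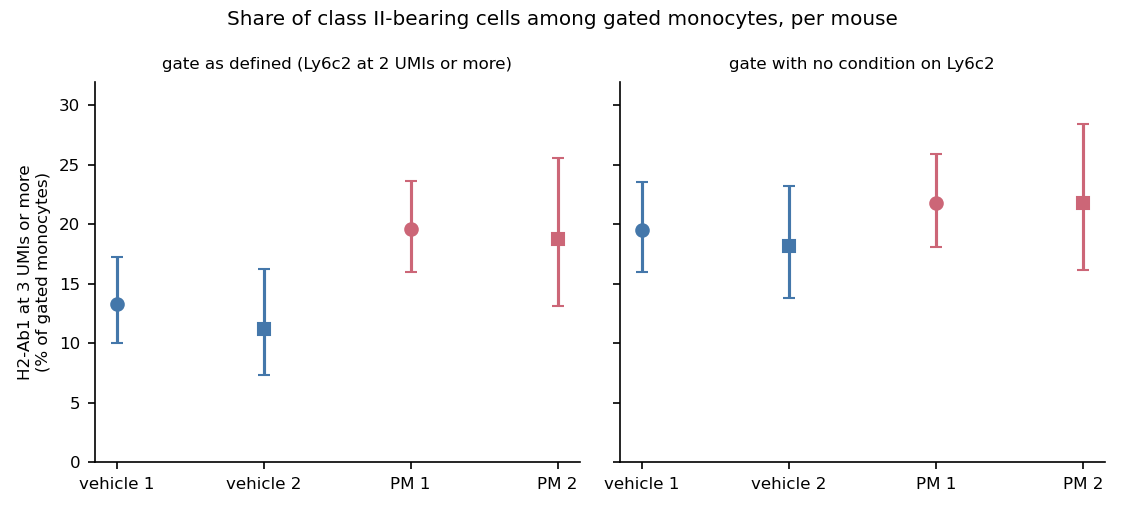
Share of cells with at least 3 UMIs of H2-Ab1 among gated monocytes of each mouse, in percent with 95% exact binomial intervals, for the gate as defined and for the gate with no condition on Ly6c2. In the first the vehicle mice are at 13.3% and 11.2% and the PM mice at 19.6% and 18.8%, and in the second at 19.6% and 18.2% against 21.8% and 21.8%.

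Genes outside the gate were then compared between MHC class II-bearing and H2-Ab1-low monocytes of the same mouse. Summed UMIs of each population were fitted with edgeR's quasi-likelihood test with the mouse as a term, and calls needed a p under 0.05 after Benjamini-Hochberg adjustment and a log2 fold change beyond 0.5 in either direction. Gate genes, the class II list, Cd74, Ciita and Tppp3 were left out of the counts of this comparison and of that with Flt3-positive cells, and the gate genes alone out of the counts between PM and vehicle. Of 7580 genes tested 288 (3.8%) were higher and 157 (2.07%) lower in the MHC class II-bearing cells, 5.87% in all. DESeq2 called 188 and 82, and the same fit without PM 1, which gave 85 of the 189 cells, called 191 and 111. Gating on one part of each cell's UMIs and testing on the other called 171 and 90 genes, of which 145 and 62 were among the 288 and 157.

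Outside the class II genes, the largest rises included genes that dendritic cells and macrophages also make. C1qb, a chain of the complement component C1q made by macrophages and dendritic cells, stood at 30.4, 44.1, 164 and 63.0 CPM against 2.35, 0, 4.94 and 1.79 CPM (log2 fold change 4.89 ± 0.36 SE, edgeR adjusted p = 7e-11). Cxcl16, a membrane chemokine for CXCR6+ T cells, stood at 13, 44.1, 31.7 and 42.0 CPM against 1.68, 1.08, 0.380 and 3.59 CPM (4.30 ± 0.51). Itgax, which encodes CD11c, stood at 19.6, 14.7, 53.5 and 25.2 CPM against 0.336, 1.08, 0.761 and 6.28 CPM (4.28 ± 0.55). All 3 genes were higher in 4 of 4 mice, as the rule for naming genes required. Their populations also did not overlap across mice. The C1q level rested on few cells, since 24 of the 27 C1qa, C1qb and C1qc UMIs of vehicle 2 and 61 of the 63 of PM 2 came from 1 cell each. Batf3, a transcription factor of cross-presenting dendritic cells that monocytes can also carry, was at 65.2, 137, 65.1 and 50.4 CPM against 9.41, 9.69, 15.6 and 10.8 CPM, a log2 fold change of 2.72 ± 0.27. Rasgrp1, a Ras exchange factor best known from lymphocytes, was at 50, 53.9, 40.1 and 42.0 CPM against 3.36, 2.15, 5.71 and 0.897 CPM (3.74 ± 0.38). The matrix protein gene Spon1 (3.8 ± 0.40), the Ly6 family gene Ly6i (2.88 ± 0.21) and the TNF receptor adaptor Traf1 (2.79 ± 0.36) were also among the largest rises. Cxcl16, Itgax and Traf1 were not tested without cells holding C1q, and 11 of the 19 cells with Itgax held C1q.

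Ly6a and Ace rose with less security. Ly6a, which encodes the interferon-responsive antigen Sca-1, was at 82.6, 9.79, 441 and 286 CPM against 4.03, 0.538, 58.2 and 87.0 CPM (log2 fold change 2.74 ± 0.43, adjusted p = 0.033 by edgeR). Ace, angiotensin-converting enzyme and a gene of non-classical monocytes, was at 104, 108, 20 and 25.2 CPM against 5.38, 17.8, 1.14 and 19.7 CPM (2.92 ± 0.62, adjusted p = 0.047). Each was higher in 4 of 4 mice, as the rule for naming genes required. Across mice the populations overlapped for Ly6a and nearly met for Ace. Both calls were lost without vehicle 2 (adjusted p = 0.18 and 0.22 by edgeR), without PM 1 (0.062 and 0.23) and without cells holding C1q (0.061 and 0.11). In those fits, in this order, the log2 fold change was 2.72, 2.61 and 2.51 for Ly6a and 3.04, 2.78 and 2.65 for Ace. Ace was also lost without called doublets (2.90, adjusted p = 0.070 by edgeR). Ly6a was lost in cells of 5000 to 20000 UMIs (2.76, adjusted p = 0.078 by edgeR).

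The largest falls were smaller than the largest rises. Elane, neutrophil elastase, was at 6.52, 9.79, 21.7 and 4.20 CPM against 21.5, 14.0, 110 and 40.4 CPM, a log2 fold change of -2.14 ± 0.33. It was lower in 4 of 4 mice, as the rule for naming genes required, although the populations overlapped across mice. S1pr4, a sphingosine-1-phosphate receptor (-1.95 ± 0.41), and Ube2c, a ubiquitin enzyme of mitosis (-1.94 ± 0.42), followed, and the gate had already removed cells with Mki67 or Top2a. The kinase genes Tesk2 (-1.73 ± 0.35) and Bmx (-1.58 ± 0.27), the unnamed transcript 2500002B13Rik (-1.60), Sparc (-1.52 ± 0.37) and Crispld2 (-1.50 ± 0.41) completed the 8. Elane, S1pr4, Ube2c and 2500002B13Rik lost their call without PM 1, with adjusted p of 0.0502, 0.069, 0.052 and 0.11 by edgeR, 2500002B13Rik also without vehicle 1 (0.18) and Crispld2 without PM 2 (0.091). DESeq2 did not call 2500002B13Rik, Sparc or Crispld2 (adjusted p = 0.12, 0.092 and 0.13). Against comparison cells without the other exclusions the log2 fold change was -6.77 for Elane and -5.47 for Ube2c, and Crispld2 was not called (-0.63, adjusted p = 0.29 by edgeR). Sparc turned sign there and was not called (0.045, adjusted p = 0.95 by edgeR). The summed level of 5 progenitor markers was 126, 118, 301 and 202 CPM in MHC class II-bearing cells and 243, 140, 642 and 302 CPM in H2-Ab1-low monocytes, and its part in these falls was not tested.

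Lists of genes are given by their counts of calls and their median log2 fold change, against a median of -0.0044 over all genes tested. Of 7 tested class II transcription genes Ciita was the 1 above both limits, as a description, while the RFX and NF-Y subunits were not called and the median was 0.14. Of 5 tested genes of the class II list 4 were above both limits, again as a description, and Cd74 was not. Tppp3 was not above them either, and was detected in 32.8% of MHC class II-bearing cells and 14.0% of H2-Ab1-low monocytes. Of 15 tested genes of the interferon-γ pathway 8 were higher and 0 lower (median 0.68). Gbp2, Gbp3, Gbp4, Gbp7, Igtp, Irf1 and Ifngr1 were among them. Gbp2, a guanylate-binding protein, was at 615, 78.3, 232 and 139 CPM against 157, 31.8, 60.9 and 70.0 CPM (log2 fold change 1.72 ± 0.15). Vehicle 1 was the highest mouse in both populations, and the difference held within each mouse. Of 35 type I interferon-stimulated genes 11 were higher and 0 lower (median 0.37), among them Ifi205 (1.54 ± 0.30), Ifit2 (1.54 ± 0.24) and Isg15 (0.82 ± 0.20).

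Antigen processing and costimulation moved in part. Of 8 proteases only Ctss was called (median 0.22). Ctss, cathepsin S, which trims the invariant chain, stood at 2937, 2272, 1692 and 1899 CPM against 1751, 1435, 1169 and 1223 CPM, a log2 fold change of 0.67 ± 0.06. Of 6 tested costimulation genes Cd274 (PD-L1, 1.49 ± 0.39), Cd40 (1.46 ± 0.34) and Icam1 (1.11 ± 0.20) were higher (median 0.93). Cd86 passed no call, and a UMI of it was found in 27.5% of MHC class II-bearing cells and 26.2% of H2-Ab1-low monocytes. Of 11 class I genes 3 were higher, with a median of 0.42, namely the class I heavy chain H2-K1 (0.73 ± 0.07), the class I transactivator Nlrc5 (0.96 ± 0.25) and the peptide transporter subunit Tap2.

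Genes that mark neighbouring myeloid states were called in both directions. Of 11 tested dendritic cell genes 6 were higher (Itgax, Batf3, Dpp4, Clec10a, Irf4 and Cbfa2t3) and Cd24a was lower, with a median of 1.08. Of 9 non-classical monocyte genes Ace, Treml4, Cx3cr1, Itgal and Nr4a1 were higher (median 0.73). Cx3cr1, the fractalkine receptor, stood at 283, 445, 91.9 and 168 CPM against 126, 219, 34.6 and 60.1 CPM (1.26 ± 0.13). Of 14 classical monocyte genes Plac8 was higher (0.59 ± 0.10) and Thbs1 (-1.16 ± 0.19) and Hp (-0.72 ± 0.11) lower, with the lowest median of all lists, -0.77. Fn1 (-1.15 ± 0.35), F13a1 (-1.03 ± 0.40) and Vcan (-1.19 ± 0.40) were not called. Of 7 macrophage genes C1qb and Axl were higher (median 0.22).

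Among 18 myeloid transcription factors 7 were higher and 0 lower, with a median of 0.40. Batf3, Irf4, Maf, Runx1, Nr4a1 and Klf2 were among them. Of 15 chemokine and cytokine genes Cxcl16, Il1b (1.15 ± 0.22), Cxcl2 and Tgfb1 were higher (median 0.76). Of 13 pattern recognition receptors Tlr7, Clec4a1 and Clec4a3 were higher and Clec4e lower (median 0.18), and of 13 cytokine receptors Il10ra, Tgfbr1, Tgfbr2 and Ifnar1 were higher (median 0.29). Cx3cr1 was higher among 10 trafficking receptors (median -0.043), and of 7 osteoclast differentiation genes Cx3cr1 and Acp5 (median 0.38). No histone deacetylase of 3 tested was called (median -0.21), and of 9 histone genes Hist1h1c (-0.56 ± 0.14) and Hist1h2ac were lower (median -0.26). Immediate early and handling stress genes, which respond to tissue dissociation, were higher for 7 of 16 (median 0.45), with Hspa1b at 69.6, 181, 85.2 and 58.8 CPM against 10.4, 43.6, 21.7 and 52.0 CPM. Their part in the other differences was not tested.

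**Figure D3:**
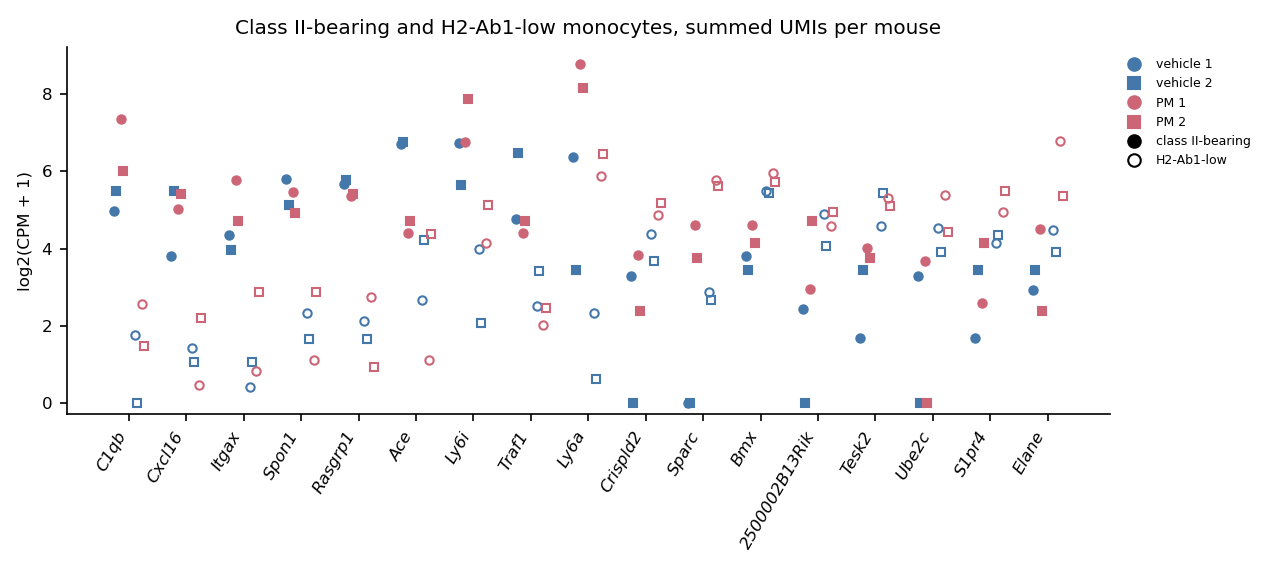
Level in each mouse, as log2(CPM + 1) of summed UMIs, of the genes with the largest differences between MHC class II-bearing (filled) and H2-Ab1-low (open) monocytes, blue for vehicle and red for PM. The class II genes, Cd74 and Ciita are left out, and the genes shown run from C1qb (log2 fold change 4.89) to Elane (-2.14), and filled and open points do not overlap for C1qb, Cxcl16 or Itgax.

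Within the MHC class II-bearing monocytes, PM was next compared with vehicle, 2 mice against 2. Of 5388 genes tested 31 (0.575%) were higher and 26 (0.483%) lower after PM, 1.06% in all, by the edgeR quasi-likelihood test. DESeq2 called 10 and 6. Leaving out 1 mouse gave between 32 and 78 higher and between 35 and 62 lower, with 68 and 36 without vehicle 1, 77 and 62 without vehicle 2, 32 and 35 without PM 1, and 78 and 49 without PM 2. Each of these fits has 1 group of a single mouse, which is assumed to vary like the other group, so its calls do not strengthen those of the 4 mice. Without the condition on Ly6c2 the counts were 56 and 38, of which 26 and 20 were shared.

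The class II genes themselves were not called. H2-Ab1, a gate gene and given as a description, stood at 1948 and 2316 CPM in the vehicle mice and 3521 and 2303 CPM in the PM mice, so the groups overlapped. Cd74 differed by a log2 fold change of 0.43 ± 0.23 (adjusted p = 0.63 by edgeR), H2-Aa by 0.47 ± 0.24 (0.58) and H2-Eb1 by 0.85 ± 0.26 (0.17). H2-DMa, H2-DMb1 and Ciita differed by 0.20 ± 0.24, 0.07 ± 0.22 and -0.40 ± 0.24. Each of the 5 class II list genes tested had a positive value (median 0.43, against -0.0002 over all genes), and 0 were called in this fit. Among the alternatives run on class II and gate genes some values passed where this fit gave no call.

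Of 33 type I interferon-stimulated genes tested 4 were higher after PM and 0 lower, 31 had a positive value and the median was 0.70. Rsad2, which encodes the antiviral enzyme viperin, was at 19.6 and 9.79 CPM in the vehicle mice and 100.2 and 164 CPM in the PM mice (log2 fold change 2.94 ± 0.44, adjusted p = 0.0027 by edgeR). Usp18, the protease that removes ISG15, was at 17.4 and 0 CPM against 76.8 and 71.4 CPM (2.66 ± 0.56). Ifit1 stood at 30.4 and 4.90 against 107 and 105 CPM (2.29 ± 0.45), and Isg15, a ubiquitin-like modifier, at 45.7 and 14.7 against 130 and 122 CPM (1.88 ± 0.39). The groups did not overlap for any of the 4 genes, which the rule for naming genes required of Rsad2 and Usp18. The promoters of Isg15, Ifit1 and Rsad2 printed above each hold the interferon response letters. Usp18 lost its call without PM 1 (adjusted p = 0.47 by edgeR), in cells of 5000 to 20000 UMIs (0.062) and with the replicate number as a block (0.070). Its fitted log2 fold change was 7.70 without vehicle 1, where the 1 vehicle mouse left is at 0 CPM, and is then no measure of size. Rsad2 lost its call narrowly without cells holding C1q (0.053). Of 14 interferon-γ pathway genes 0 were called, with a median of -0.32.

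Axl, Mrc1 and Ms4a7, which macrophages carry, were also higher. Axl, a receptor tyrosine kinase that binds apoptotic cells, was at 8.70 and 14.7 CPM in vehicle and 150 and 88.2 CPM in PM (3.54 ± 0.49, adjusted p = 0.0016 by edgeR). Mrc1, the mannose receptor, was at 6.52 and 9.79 against 85.2 and 29.4 CPM (3.07 ± 0.64), and Ms4a7 at 13 and 14.7 against 98.6 and 33.6 CPM (2.45 ± 0.57). In each of these PM 1 was the highest mouse. No PM mouse overlapped the vehicle mice, as the rule for naming genes required. Summed over 7 macrophage markers, the level was 178 and 328 CPM in vehicle and 770 and 588 CPM in PM. Of 5 tested 1 was called higher, and the part of that shift in these rises was not tested. Bcl2a1b, a survival factor of the BCL2 family (2.71 ± 0.58), the collagen-binding integrin Itga1 (2.51 ± 0.46) and the class I-like gene H2-Q6 (2.43 ± 0.47) completed the 8 largest rises. Bcl2a1b and H2-Q6 have near-identical family members among which reads can be split. Without the Ly6c2 condition Axl (1.46, adjusted p = 0.64 by edgeR), Bcl2a1b (1.02, 0.27) and Ms4a7 (0.57, 0.91) were no longer called. Axl was also lost without PM 1, Bcl2a1b without vehicle 1 or PM 1, and Mrc1 and Ms4a7 without vehicle 1. Without called doublets Ms4a7 was lost (adjusted p = 0.054 by edgeR). With the replicate number as a block Bcl2a1b and Ms4a7 lost their calls (0.079 and 0.070 by edgeR). Itga1 lost its call at 5 or more H2-Ab1 UMIs (adjusted p = 0.064 by edgeR). Mrc1 and Ms4a7 were not tested without PM 1 or without cells holding C1q.

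The largest falls after PM were in Klf9, Lair1, Pmaip1 and Socs3. Klf9, a transcription factor induced by glucocorticoids, fell from 159 and 88.1 CPM to 10.0 and 29.4 CPM (log2 fold change -2.96 ± 0.46). Lair1, an inhibitory collagen receptor, fell from 289 and 142 CPM to 31.7 and 33.6 CPM (-2.77 ± 0.36), and Pmaip1, which encodes the BH3 protein NOXA, from 200.03 and 397 to 30.1 and 71.4 CPM (-2.67 ± 0.43). Socs3, a suppressor of cytokine signalling, fell from 163 and 78.3 to 23.4 and 21.0 CPM (-2.46 ± 0.42). No vehicle and PM mouse overlapped for these 4 genes, as the rule for naming genes required. Lair1 was called under every alternative run that kept both mice of each group. Klf9 and Socs3 were lost without vehicle 1 (adjusted p = 0.056 and 0.20 by edgeR), and Pmaip1 without cells holding C1q (0.52), where its fold change was -2.97. DESeq2 did not call H2-Q6 or Socs3 (adjusted p = 0.12 and 0.051), and it gave no adjusted p for Mrc1, Bcl2a1b, Usp18, Ms4a7 and Treml4.

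Of 9 non-classical monocyte genes 4 fell and 0 rose, with a median of -1.02. Ace fell from 104 and 108 to 20 and 25.2 CPM (-2.24 ± 0.39), Treml4 from 65.2 and 44.1 to 15.0 and 8.40 CPM (-2.09 ± 0.49), Cx3cr1 by 1.53 and the integrin chain Itgal by 1.02 on the log2 scale. Tppp3 went with them, from 311 and 372 CPM to 112 and 54.6 CPM (-1.89 ± 0.29, adjusted p = 0.0032 by edgeR), and was called under every alternative run that kept both mice of each group. Thbd, thrombomodulin, fell by 1.84 on the log2 scale. Treml4 and Thbd passed narrowly (adjusted p = 0.0497 and 0.042 by edgeR). Treml4 lost its call without vehicle 1, PM 1 or PM 2 and without the Ly6c2 condition (-1.25, adjusted p = 0.14 by edgeR). It was also lost without called doublets (adjusted p = 0.069 by edgeR) and at 5 or more H2-Ab1 UMIs (0.14). The same held in cells of 5000 to 20000 UMIs and with the replicate block (0.13 and 0.096 by edgeR). Thbd lost its call without vehicle 2, PM 1 or PM 2. It was also lost without called doublets (adjusted p = 0.054 by edgeR) and at 5 or more H2-Ab1 UMIs (0.097). The same held without cells holding C1q and with the replicate block (0.064 and 0.096 by edgeR). Ace and Thbd were not called by DESeq2 (adjusted p = 0.099 and 0.48). The separate gate for non-classical monocytes held 61, 41, 15 and 12 cells, and the summed level of 7 non-classical markers was 1068, 1332, 227 and 500.03 CPM in MHC class II-bearing cells. Their part in the falls was not tested.

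The remaining lists had few calls. Of 14 classical monocyte genes F13a1 (1.74 ± 0.25) and Fn1 (1.35 ± 0.24) rose (median 0.47), and of 9 macrophage genes Axl and Mrc1 rose, with a median of 1.82. Cx3cr1 fell among 10 trafficking receptors. Of 13 chemokine and cytokine genes Il1b fell, from 354 and 264 to 109 and 79.8 CPM (-1.66 ± 0.26). Id2 rose (1.46 ± 0.28) among 16 transcription factors, whose median was -0.32. Clec4a2 rose among 13 pattern recognition receptors, Hspa1a (-1.57 ± 0.30) and Ier3 fell among 16 handling stress genes (median -0.54), and Cx3cr1 was the 1 of 7 osteoclast differentiation genes that fell. None was called of 6 class II transcription genes (median 0.037), 8 proteases (-0.12), 11 class I genes (0.27), 2 costimulation genes (0.33), 2 histone deacetylases (0.12), 6 histone genes (0.20) and 13 cytokine receptors (-0.047).

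**Figure D4:**
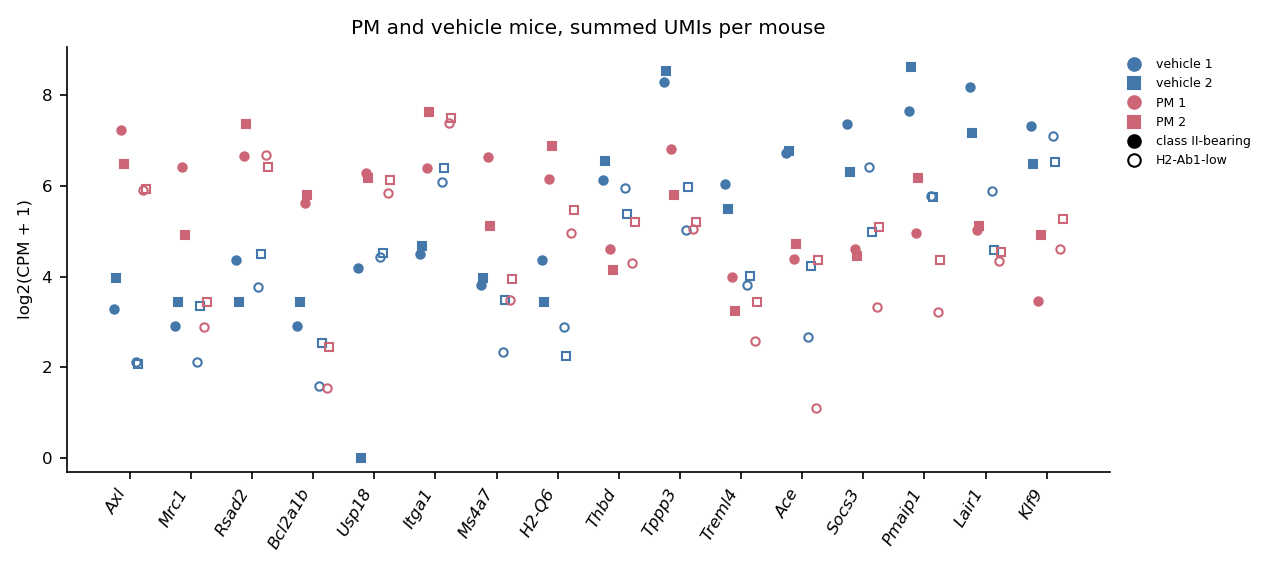
Level in each mouse, as log2(CPM + 1) of summed UMIs, of the 16 genes with the largest differences between vehicle (blue) and PM (red) in MHC class II-bearing monocytes (filled), beside H2-Ab1-low monocytes of the same mice (open). Among the filled points Rsad2 is at 19.6 and 9.79 CPM in vehicle and 100.2 and 164 CPM in PM, and Tppp3 at 311 and 372 against 112 and 54.6 CPM.

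Whether PM acted differently on MHC class II-bearing and H2-Ab1-low monocytes was tested with an interaction term, with the mouse kept as a term. Of 8257 genes tested 9 (0.109%) had a higher and 5 (0.0606%) a lower PM effect in the MHC class II-bearing cells at an adjusted p under 0.05, and DESeq2 called 1 and 0. Leaving out 1 mouse gave from 18 to 42 and from 5 to 33 genes, with 42 and 33 without vehicle 1, 19 and 15 without vehicle 2, 18 and 20 without PM 1, and 21 and 5 without PM 2, again with a single mouse in 1 group. F13a1, a transglutaminase chain of classical monocytes, stood at 437, 514, 1183 and 2013 CPM in MHC class II-bearing cells and at 1726, 1571, 1861 and 2299 CPM in H2-Ab1-low monocytes. Its PM effect was larger by a log2 difference of 1.36 ± 0.15 (adjusted p = 1.8e-05 by edgeR). Vcan, versican, stood at 196, 162, 299 and 416 against 830, 588, 539 and 504 CPM (1.39 ± 0.20), and the galectin gene Lgals1 at 115, 147, 506 and 492 against 425, 518, 696 and 640 CPM (1.41 ± 0.18). In vehicle mice these 3 genes were lower in the MHC class II-bearing cells by a wide margin, and in PM mice the 2 populations stood closer together.

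Ccl3 (2.32 ± 0.34), Rgs1 (3.27 ± 0.64), Emb (0.83 ± 0.15), Lgals3 (0.61 ± 0.13), Ms4a6c (0.55 ± 0.12) and Stfa2l1 (4.13 ± 0.57) were the others with a higher PM effect, of which Stfa2l1 lost its call without called doublets (1.67, adjusted p = 0.94 by edgeR). Sat1 (-0.94 ± 0.15), Adgre4 (-1.82 ± 0.30), Itgal (-0.92 ± 0.19), Tppp3 (-1.53 ± 0.33) and Spn (-1.77 ± 0.39) were those with a lower one. Adgre4, Itgal and Spn are genes of non-classical monocytes. Of the 5 genes with a lower PM effect, 1 kept its call with no condition on Ly6c2 and 2 without called doublets. At 5 or more H2-Ab1 UMIs 4 kept it, as did 4 without cells holding C1q, and DESeq2 called 0. Among the genes with a higher PM effect, 7 kept their call with no condition on Ly6c2 and 6 without called doublets. Of 14 classical monocyte genes 4 had a higher PM effect (median 0.40, against 0.0062 over all genes), and of 11 non-classical genes 2 had a lower one (median -0.92). The type I interferon list had 0 of 36 called and a median of 0.011, so a difference in its response between the populations was not detectable. Of 8 class II list genes 0 were called and 1 had a positive value (median -0.55).

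In all 1181 gated monocytes, where H2-Ab1 was not part of the choice, the PM effect on class II could be tested. Ly6c2 was still part of the choice. The PM effect was not tested without that condition here, nor in H2-Ab1-low monocytes alone. H2-Ab1 had a log2 fold change of 1.10 ± 0.24 and was not called (adjusted p = 0.068 by edgeR), while DESeq2 gave 1.09 with an adjusted p of 0.0016. With 1 mouse left out the adjusted p by edgeR was 7.4e-05 without vehicle 1 (1.21), 0.0013 without vehicle 2 (0.99), 0.0030 without PM 2 (1.42) and 0.28 without PM 1 (0.66). In these fits too 1 group is a single mouse assumed to vary like the other group, so the smaller p-values do not strengthen the 0.068. Of 9663 genes tested 1.96% were higher and 0.693% lower, 2.65% in all, and of 8 class II list genes 4 were higher, with a median of 1.20. These were Cd74 (1.26 ± 0.19, adjusted p = 0.0045 by edgeR), H2-Aa (1.13 ± 0.20, 0.013), H2-Oa (3.42 ± 0.51) and H2-Ob (2.86 ± 0.52), the last 2 being chains of H2-DO, the inhibitor of H2-DM. H2-Oa was at 1.15, 1.92, 19.5 and 10.6 CPM in gated monocytes and at 0.582, 0.476, 4.49 and 3.20 CPM in Ly6g-gated neutrophils. The PM mice were higher in both populations, and the part of free RNA in this rise was not tested. Cd74 and H2-Aa lost their call without PM 1 (0.98 and 0.77, adjusted p = 0.075 and 0.16 by edgeR). Of 37 type I interferon-stimulated genes 16 were higher and 0 lower, with a median of 0.84.

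Among H2-Ab1-low monocytes alone, a comparison added after seeing the data, Cd74 was at 85.7, 62.4, 375 and 481 CPM (log2 fold change 2.50 ± 0.18, adjusted p = 8.8e-06 by edgeR). It was detected in 26.1%, 23.4%, 71.9% and 70.3% of these cells, and in 2.55%, 2.76%, 6.98% and 4.61% of neutrophils, whose Cd74 level was 6.29, 9.34, 42.0 and 18.4 CPM. The PM mice lay above the vehicle mice in both, and the level in monocytes was above the neutrophil background in every mouse. H2-Aa was at 9.74, 8.07, 28.9 and 44.0 CPM (1.93 ± 0.28), against 2.85, 2.55, 8.83 and 4.75 CPM in neutrophils. Of 9364 genes tested 1.74% were higher and 0.598% lower, 2.34% in all, and of 7 class II list genes the same 4 were. The alternatives run gave 2.29 to 2.77 for Cd74 and 1.70 to 2.23 for H2-Aa, and both were called in those that used all 4 mice.

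Another class II population was the 123 cells (32, 38, 35 and 18) that met the same H2-Ab1 condition and held Flt3, the receptor of dendritic cell development. Siglech, Cd79a, Mki67 and Top2a were again absent, but no condition was set on Csf1r, Ccr2 or Ly6c2. The gates thus differed in these monocyte genes as well as in Flt3, and the part of that in the differences below was not tested. This comparison replaced a planned dendritic gate that held only 3, 11, 2 and 2 cells. Of 4474 genes tested 219 (4.89%) were higher and 138 (3.08%) lower in the MHC class II-bearing monocytes, 7.98% in all (edgeR, mouse as a term), and DESeq2 called 90 and 51. Without vehicle 1 the counts were 123 and 78, and without PM 1 136 and 92. Chil3, a chitinase-like protein of classical monocytes, was at 3651, 676, 1061 and 1824 CPM against 1053, 174, 183 and 217 CPM (log2 fold change 2.26 ± 0.17). Ly6i (3.69 ± 0.38), Vcan (2.88 ± 0.29), C1qc (2.42 ± 0.57), the transcription factor Maf (2.28 ± 0.38) and C1qb (2.22 ± 0.47) were higher too. Cd7 was at 2.17, 0, 5.01 and 0 CPM against 92.8, 96.5, 208 and 42.1 CPM (-5.44 ± 0.43). Klrd1 (-4.74 ± 0.44), the nuclear pore gene Nup210 (-2.58 ± 0.26), the kynurenine enzyme Kmo (-2.43 ± 0.31), cyclin D2, Ccnd2 (-2.42 ± 0.32) and the collagen receptor Ddr1 (-2.06 ± 0.43) were lower. All of these 12 genes stayed called under each alternative in which they were tested. C1qb and C1qc were not tested without PM 1, nor Ddr1 without vehicle 1, nor Klrd1 without called doublets, and DESeq2 gave no adjusted p for C1qc and Ddr1.

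The levels of some markers were set beside those of the other gated populations. The mean over 4 mice of H2-Ab1 was 2522 CPM in MHC class II-bearing monocytes, 4414 in Flt3-positive cells, 2011 in the non-classical gate, 1232 in C1qa Vcam1-positive macrophages, 911 in B cells and 6.12 in neutrophils, where the gate fixed it for the MHC class II-bearing and Flt3-positive cells. Cd209a, a gene of monocyte-derived dendritic cells, averaged 37.9 CPM against 508 in Flt3-positive cells and 0.219 in H2-Ab1-low monocytes. Ace averaged 64.3 CPM against 657 in the non-classical gate, Tppp3 212 against 199, and C1qa 87.2 against 2760 in macrophages. These means are a description with no test.

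**Figure D5:**
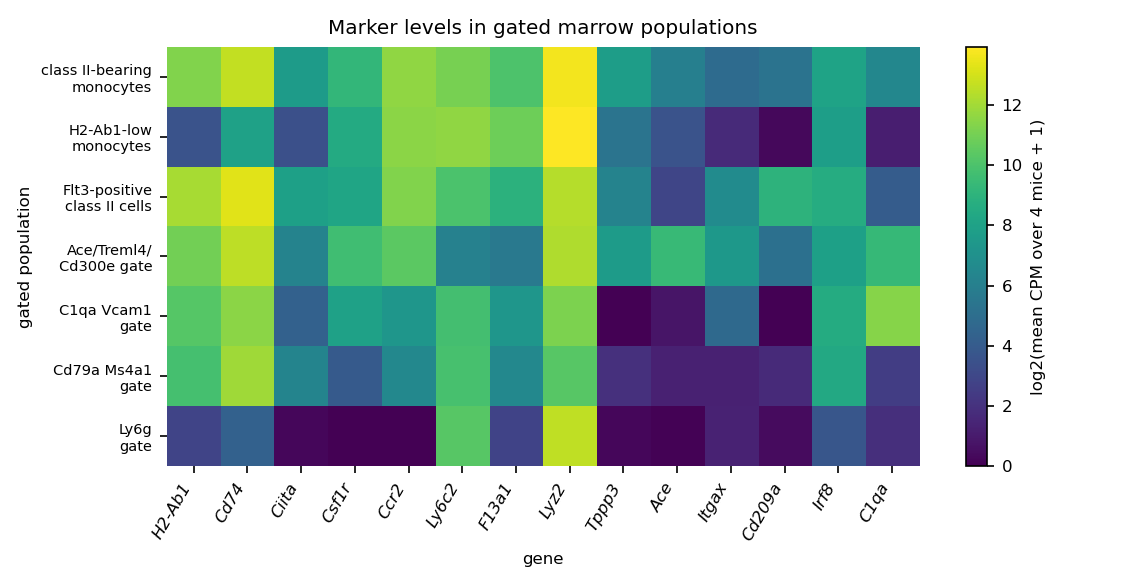
Mean level over the 4 mice, as log2(mean CPM + 1) on the colour scale, of 14 genes (columns) in MHC class II-bearing monocytes and the other gated populations (rows). H2-Ab1 averages 2522 CPM in MHC class II-bearing monocytes and 10.8 CPM in H2-Ab1-low monocytes, and C1qa averages 87.2 CPM against 2760 CPM in macrophages.

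The 189 cells were not uniform. Any UMI of C1qa, C1qb or C1qc was found in 6, 3, 20 and 3 cells, 32 in all, of which 21 held 3 or more and 15 of those came from PM 1. Cd209a was found in 1, 1, 9 and 0 cells, Itgax in 1, 2, 14 and 2, Ace in 17, 10, 5 and 3, and Tppp3 in 25, 10, 19 and 8. The PM 1 library thus held most cells with C1q, Cd209a and Itgax, and the vehicle mice most with Ace. Tppp3 and Ace shared 19 cells, 54.3% of those with Ace and 30.6% of those with Tppp3, while 0 cells held both Cd209a and Ace. Cd209a and Itgax shared 7 cells, 63.6% of those with Cd209a and 36.8% of those with Itgax. With cells holding a C1q UMI left out, the comparison with H2-Ab1-low monocytes called 205 genes higher and 106 lower.

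Markers of other cell types were low for B and T cells, present for neutrophils, and higher than in H2-Ab1-low monocytes for conventional dendritic cells and macrophages. The summed level of 7 B cell markers was 10.9, 19.6, 46.8 and 50.4 CPM, most of it Cd79b with Ebf1 and Fcmr at 0, against 21.2, 35.5, 36.1 and 31.4 CPM in H2-Ab1-low monocytes. They were lower in the MHC class II-bearing cells of both vehicle mice and higher in those of both PM mice. The 5 T cell markers summed to 0, 0, 3.34 and 0 CPM with Cd3e, Cd3g and Trac at 0, with 0 of them tested. The 5 plasma cell markers, led by Prdm1, summed to 67.4, 73.4, 45.1 and 42.0 CPM against 41.0, 17.8, 31.9 and 24.2 CPM in H2-Ab1-low monocytes, higher in 4 of 4 mice, with Tnfrsf17 at 0 and 1 of 2 tested called higher. The 6 plasmacytoid dendritic cell markers, led by Tcf4, summed to 141, 215, 204 and 290 CPM against 163, 122, 133 and 165 CPM, with Klk1 and Pacsin1 at 0 and 0 of 2 tested called. The part of these cell types in the results was not tested. Of 7 conventional dendritic cell markers Xcr1 was at 0 and the sum was 207, 259, 272 and 143 CPM against 44.0, 39.3, 42.2 and 45.7 CPM, led by Batf3, and 3 of 3 tested were called higher. The 7 macrophage markers, led by Adgre1, summed to 178, 328, 770.0 and 588 CPM against 150, 134, 219 and 240 CPM, and 2 of 3 tested were called higher. Both sums were higher in 4 of 4 mice, and their part in the results was not tested. Neutrophil markers, led by S100a9, summed to 17959, 9008, 28774 and 5114 CPM against 20862, 12932, 35384 and 20138 CPM, and 0 of 8 were called. In Ly6g-gated neutrophils they summed to between 321442 and 358816 CPM. A doublet score called 2, 0, 6 and 0 of the MHC class II-bearing cells (4.23%) and 5.19% of H2-Ab1-low monocytes. With the called doublets left out 286 genes were higher and 166 lower against H2-Ab1-low monocytes, of which 269 and 143 were shared with the 288 and 157, and 29 and 20 between PM and vehicle, of which 27 and 20 were shared.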

How the data were processed

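Marrow from 4 mice, 2 per group, was profiled by 10x Genomics 3′ single-cell RNA-seq, 1 library per mouse. The authors deposited raw counts of UMIs per gene and cell for 32285 genes, made with Cell Ranger 6.0.1 per the file headers; the submitters' processing notes name STAR and GRCm39, whereas the study's methods name GRCm38.

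Barcodes were kept when 300 genes or more were detected and mitochondrial UMIs did not exceed 20%. Members and gene lists were chosen with earlier results of these data known, so no list is independent evidence. UMIs were summed per mouse and population; CPM are gene UMIs per 1000000 UMIs of the sum. Sums were tested with the quasi-likelihood test of edgeR 4.0.16 in R 4.3.3 (TMM, filterByExpr, robust fit), with the mouse as a term between populations of the same mice and without it between PM and vehicle; the standard error is the log2 fold change divided by the root of F. P-values were adjusted over all genes tested. DESeq2 1.42.0 was an alternative. The tests were also run on simulated sums drawn from a shared mean profile, with the same dispersion for every gene and no mouse effect. That setting is simpler than these data, so it does not show how the tests behave on them. Shares were compared with exact permutation tests (scipy 1.17.1, Python 3.11.15). A doublet score by nearest simulated doublets (scikit-learn 1.9.0, scikit-image 0.26.0) recovered 29.5%, 24.9%, 38.3% and 20.3% of simulated doublets, and called cells were kept except in an alternative. Intervals cover counting error only.

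Named genes were, among called genes at 20 CPM or more in the higher group with the same direction in every mouse or vehicle and PM pair, the 12 largest rises and 8 largest falls against H2-Ab1-low monocytes, the 8 and 8 between PM and vehicle, the 4 smallest adjusted p for the difference of the PM effect, and the 6 and 6 against Flt3-positive cells, together with gate, marker and list genes. Immunoglobulin, T cell receptor, mitochondrial, hemoglobin and gate genes were left out of these ranks. Genes in lists beyond the most abundant, the other genes with a different PM effect and the genes of the paragraph on differences among the 189 cells were named after their values were seen. Ciita, H2-Aa and H2-Eb1, which ranked among the largest rises, are given as description only. Replicate numbers of vehicle and PM mice were checked for pairing by the correlation of their deviations, which was -0.013 over 5392 genes, so the mice were not paired. The comparison with Flt3-positive cells, that within H2-Ab1-low monocytes and the alternatives on C1q and Ly6c2 were added after seeing the data. Some genes of these lists are not reported here by name.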

Additional observations from a re-analysis of the deposited data

Results flagged for a closer look

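The edgeR interaction test compared the effect of PM between MHC class II-bearing and H2-Ab1-low monocytes. Its 4 smallest adjusted p-values were for F13a1, Lgals1, Vcan and Stfa2l1, of which Stfa2l1 did not hold without called doublets. The difference of the PM effect on the log2 scale was 1.36 ± 0.15 for F13a1 (adjusted p = 1.8e-05), and it was called under each alternative run with all 4 mice, DESeq2 among them. For Lgals1 it was 1.41 ± 0.18 and for Vcan 1.39 ± 0.20, both with adjusted p above 0.05 in DESeq2 (0.086 and 0.14) and called in the other alternatives with all 4 mice.

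For Stfa2l1, a stefin A family gene abundant in neutrophils, the difference was 4.13 ± 0.57, with 13, 0, 142 and 46.2 CPM in MHC class II-bearing cells against 43.7, 20.5, 31.6 and 12.6 CPM in H2-Ab1-low monocytes. Vehicle 2 is at 0 CPM there, and the fitted difference was 9.61 without vehicle 1 and 10.3 with at least 5 H2-Ab1 UMIs, so its size is not fixed by these data. It was 1.67 (edgeR adjusted p = 0.94) once called doublets were left out, DESeq2 did not call it (0.094), and 6 of the 8 called doublets among the MHC class II-bearing cells came from PM 1. Members of this family have near-identical copies among which reads can be split.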

How the results depend on the processing

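Genes called higher and lower against H2-Ab1-low monocytes numbered 288 and 157, and 188 and 82 with DESeq2, 171 and 90 when gate and test used separate parts of the UMIs, and 1688 and 2335 when the comparison cells lost the other exclusions. Leaving out 1 mouse gave 191 to 316 and 111 to 180. Between PM and vehicle in MHC class II-bearing cells the 31 and 26 genes became 10 and 6 with DESeq2, 78 and 64 with no filter on low counts, 56 and 38 with no condition on Ly6c2, 14 lower at 5 or more H2-Ab1 UMIs, and 32 to 78 and 35 to 62 without 1 mouse. The difference of the PM effect, 9 and 5 genes, became 1 and 0 with DESeq2, 22 and 14 with no filter, 18 higher at 5 or more H2-Ab1 UMIs, 20 and 10 without C1q-holding cells, 18 higher with no condition on Ly6c2, 2 lower without called doublets, and 18 to 42 and 5 to 33 without 1 mouse. Against Flt3-positive cells 219 and 138 became 90 and 51 with DESeq2, 228 lower with no filter, and 123 to 250 and 78 to 197 without 1 mouse. For the difference of the PM effect, no condition on Ly6c2 gave 4 lower genes, of which 1 was among the 5. The cause of these changes was not tested.

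The difference in share among monocytes, 6.92 points, was 8.57 with cells thinned to 3000 UMIs, 4.69 in cells of 5000 to 20000 UMIs, 9.32 and 4.79 at 2 and 5 H2-Ab1 UMIs, 2.96 with no condition on Ly6c2, 8.28 at 4 Ly6c2 UMIs, 5.22 without C1q-holding cells, and 5.87 to 7.97 without 1 mouse. The difference among all cells kept, 0.0668 points, was -0.194 with no condition on Ly6c2 and -0.0834 to 0.217 without 1 mouse. It was 0.219 with cells thinned to 3000 UMIs, 0.124 at 4 Ly6c2 UMIs, and 0.115 and 0.0290 at 2 and 5 H2-Ab1 UMIs. Without C1q-holding cells it was 0.0275. H2-Ab1 in all gated monocytes was called with DESeq2 (1.09) and with no filter (1.09), and ranged from 0.66 to 1.42 without 1 mouse, where only the value without PM 1 was not called. Leaving out 1 mouse of a PM comparison leaves 1 group with a single mouse, assumed to vary like the other group, so those calls do not strengthen a result. Signs turned for Sparc (0.045, comparison cells without the other exclusions). In MHC class II-bearing cells under PM they turned for H2-DMa (-0.050 to 0.40 without 1 mouse, lowest without PM 1) and H2-DMb1 (-0.011 without C1q-holding cells, -0.022 with no condition on Ly6c2, -0.029 in cells of 5000 to 20000 UMIs and -0.012 to 0.14 without 1 mouse, lowest without PM 1). For Ciita under PM they turned in all gated monocytes (-0.13 to 0.68 without 1 mouse, lowest without vehicle 2) and in H2-Ab1-low monocytes (-0.12 to 1.46 without 1 mouse, at -0.12 without vehicle 2 and -0.028 without PM 2). None of these genes was called under PM in the main fits. For called genes that are named, the class II genes left out, 184 alternative values against H2-Ab1-low monocytes had the same direction and call and 28 lost the call, between PM and vehicle in MHC class II-bearing cells 157 had the same and 39 lost it, and against Flt3-positive cells the 90 values that could be tested had the same.

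Whether the replicate numbers pair the mice could not be decided from the single correlation of deviations (-0.013). With the replicate block the PM comparison called 14 and 10 genes and H2-Ab1 in all gated monocytes was called (1.06). With no replicate block, the mouse not being a term, the comparison with H2-Ab1-low monocytes called 62 and 21. Among the sums of MHC class II-bearing cells the smallest, that of vehicle 2, held 204269 UMIs from 24 cells.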

Other observations

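Hemoglobin RNA in the MHC class II-bearing monocytes came almost wholly from 1 cell. Of 2147 hemoglobin UMIs in the PM 1 cells 2114 were in that cell, and the other 3 mice held 17, 28 and 20 UMIs. Cxcl9, an interferon-γ-induced chemokine, was at 4.35, 4.90, 341 and 8.40 CPM and was found in 2, 1, 5 and 1 cells, so its level in PM 1 rests on 5 cells.

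Megakaryocyte, basophil and NK cell markers were sparse. Basophil markers summed to 0, 0, 11.7 and 8.40 CPM, NK cell markers to 0, 9.79, 70.2 and 4.20 CPM and megakaryocyte markers to 17.4, 0, 36.7 and 8.40 CPM, with PM 1 the highest mouse for each.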
